A study of Mus musculus with 6 samples.

Results

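Chromatin accessibility at 8 cell junction genes was compared between uninjured olfactory epithelium and epithelium 24 h after injury, in basal cells of the mouse. The 8 genes were taken by name, 4 desmosomal cadherins (Dsg2, Dsg3, Dsc2 and Dsc3) and 4 connexins (Gjb2, Gjb5, Gjb6 and Gja1), out of 21938 protein-coding genes with a promoter window. The rule that lists them uses no measured value, but the genes were chosen with earlier results of these data known. For each gene, transposase cut sites were counted within 1 kb of its annotated starts and in 500 bp tiles over the gene and 30 kb to each side.

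Desmosomes are the adhesive plaques that tie the keratin networks of neighbouring epithelial cells together. Their extracellular bridge is made by desmogleins (Dsg) and desmocollins (Dsc), which bind plakoglobin, plakophilins and desmoplakin inside the cell. Dsg2 and Dsc2 are the widely expressed pair, whereas Dsg3 and Dsc3 mark the basal layers of stratified epithelia. Connexins assemble into gap junction channels that pass ions and small molecules between cells. Gja1 encodes connexin 43, Gjb2 connexin 26 and Gjb6 connexin 30, and Gjb5 encodes an epidermal connexin of the same beta class. Horizontal basal cells (HBCs) are the keratin 5-positive reserve stem cells that lie flat on the basal lamina of the olfactory epithelium and become active when the layers above them are lost.

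The 6 single-cell ATAC-seq libraries came from adult Krt5-CreER mice homozygous for a Rosa26 LSL-YFP reporter, so that YFP follows cells that expressed Krt5 and their descendants. YFP-positive, propidium iodide-negative cells of the dorsal epithelium were sorted, and the labels call all of them horizontal basal cells. There were 3 control libraries and 3 libraries from mice given methimazole, a drug toxic to the olfactory epithelium, by intraperitoneal injection 24 h before. In both groups replicate 1 came from mice of 8 weeks, replicate 2 of 6 weeks and replicate 3 of 6 to 7 weeks. The labels say that the epithelium of each animal was processed individually, but not whether a library holds 1 animal or several.

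Barcodes with at least 2000 fragments numbered 420 to 1338 per library (4476 in all) and gave 14825320 to 44875242 cut sites per library. Values in CPM are cut sites per 1000000 cut sites of the barcodes counted, after TMM scaling except where levels by cell cluster are given. The share of cut sites in open tiles was 75.6 to 79.5% in uninjured and 66.8 to 74.6% in injured libraries. Uninjured 3 and injured 3 stood apart from the others: HBC-like clusters held 25.8% and 21% of their barcodes, against 60.5 to 74.4% elsewhere. These libraries also shared 34 barcodes, against 0 to 4 for any other pair, and a median of 97.3% of the fragments in the shallower copy lay at identical positions in the deeper one. One barcode held 14.7% of the fragments of injured 2. The sort contained cells other than HBCs: olfactory sensory neuron-like clusters made up 4.61 to 9.86% of uninjured and 2.62 to 23.9% of injured libraries, and sustentacular-like cells numbered 6, 77 and 35 in uninjured and 0, 1 and 1 in injured libraries. Unnamed clusters held 55.0% of uninjured 3 and 46.6% of injured 3, against 15 to 26.7% of the other libraries. Some unnamed cells were high in HBC markers. In cluster 7 (158 cells of uninjured 3) 8 of 8 HBC markers stood above the mean of the other clusters. In cluster 3 (218 cells of injured 3) it was 7 of 8, and in HBC-like cluster 1 it was 6 of 8. Clusters 3 and 7 stayed unnamed because a second marker list came within 0.2 of the highest. Summed over the promoters of 8 HBC markers (Krt5, Krt14 and Trp63 among them), libraries held 126 to 177 CPM in the uninjured group and 112 to 162 CPM in the injured group. The sum over 6 immune markers was 1.68 to 1.90 CPM and 2.86 to 5.99 CPM, with Ptprc, Tyrobp and Itgam at 0 in at least 1 library. The sums of 3 other lists also did not overlap between the groups. They were 14.5 to 27.0 CPM in uninjured and 8.23 to 10.5 CPM in injured libraries for 6 sustentacular markers, 5.37 to 7.00 and 9.44 to 11.5 CPM for 4 endothelial markers, and 53.4 to 59.4 and 37.7 to 52.0 CPM for 5 respiratory markers. The part of these differences in cell makeup in the results over all cells was not tested, and counts over HBC-like clusters alone follow those over all cells. Of the barcodes, 13.5% were called as doublets and were kept.

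Sequences of 4 stretches in the connexin loci are shown from the GRCm38 reference, because they are where tiles at these loci opened or closed, or stayed as they were. Each is read 5′ to 3′ on the strand of its gene, and the first 3 are the 300 bases with the most cut sites in those tiles. Capitals mark matches to the AP-1 consensus TGANTCA, searched on both strands. The first lies upstream of Gjb6 (chr14:57138716-57139015, minus strand), across the border of 2 tiles that opened. The second lies downstream of Gjb5 (chr4:127349697-127349996, minus strand), in the tile with the most cut sites of that locus. The next, in an intron of Gja1 (chr10:56393198-56393497, plus strand), lies in a tile that closed. The last is the upstream part of the Gja1 promoter as RefSeq gives it for GRCm38.p6 (chr10:56377050-56377299, plus strand), which was not called.
Gjb6 upstream: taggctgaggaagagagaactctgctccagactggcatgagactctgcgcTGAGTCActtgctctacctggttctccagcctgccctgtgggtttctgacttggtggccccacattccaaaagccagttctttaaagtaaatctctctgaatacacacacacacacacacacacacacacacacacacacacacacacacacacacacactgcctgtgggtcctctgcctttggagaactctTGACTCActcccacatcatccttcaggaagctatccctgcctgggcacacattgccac
Gjb5 downstream: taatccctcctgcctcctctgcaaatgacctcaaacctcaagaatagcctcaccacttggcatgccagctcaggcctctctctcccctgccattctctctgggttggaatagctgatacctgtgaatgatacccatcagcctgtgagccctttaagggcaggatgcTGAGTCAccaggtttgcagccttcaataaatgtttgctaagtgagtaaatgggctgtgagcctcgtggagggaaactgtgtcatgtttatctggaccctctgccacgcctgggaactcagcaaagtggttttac
Gja1 closing tile: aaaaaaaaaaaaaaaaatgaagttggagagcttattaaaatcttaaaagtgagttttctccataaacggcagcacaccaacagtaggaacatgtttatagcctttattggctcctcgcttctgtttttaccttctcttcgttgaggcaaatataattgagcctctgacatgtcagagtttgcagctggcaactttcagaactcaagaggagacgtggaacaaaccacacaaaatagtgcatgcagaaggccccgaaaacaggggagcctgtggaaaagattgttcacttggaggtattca
Gja1 promoter: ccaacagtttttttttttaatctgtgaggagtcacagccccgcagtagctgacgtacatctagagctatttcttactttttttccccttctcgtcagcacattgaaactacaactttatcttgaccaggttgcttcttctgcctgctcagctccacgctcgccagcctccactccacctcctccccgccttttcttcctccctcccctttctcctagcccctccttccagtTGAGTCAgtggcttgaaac
The Gjb6 stretch held 2 matches, the Gjb5 stretch 1, the closing Gja1 stretch 0 and the Gja1 promoter 1. None of the first 3 stretches overlapped an annotated exon.

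At the promoters, the desmogleins opened after injury, Dsg3 by far the more, and no promoter of the other 6 genes passed the test. Across all cells, 2 of the 8 promoters were called higher and 0 lower (edgeR quasi-likelihood test, Benjamini-Hochberg adjusted p under 0.05 over 17163 promoters). Of all promoters tested, 2.21% were called higher and 3.92% in either direction. All 8 log2 fold changes were above 0, with a median of 0.34, while the median over all promoters was 0.00. The groups did not overlap for 4 of the 8 (Dsg3, Dsg2, Gjb5 and Gjb6), against 27.3% of all promoters. In sums over all cells, a change in how many cells are open and a change in how open each cell is cannot be told apart. With the replicate number as a block, 778 promoters were called higher and 1019 lower, against 379 and 294 without it, while the calls of the 8 promoters did not change.

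Dsg3 encodes the desmoglein of basal keratinocytes. Its promoter, around a start at chr18:20510274 on the plus strand (ENSMUSG00000056632.8), held 0.96, 1.53 and 1.05 CPM in the uninjured libraries and 14.3, 11.7 and 4.14 CPM in the injured ones. Every injured library lay above every uninjured one, and injured 3, the library with the fewest HBC-like cells, was the lowest of its group. The mean rose from 1.18 ± 0.306 to 10.1 ± 5.29 CPM (SD, n = 3 each), with a fitted log2 fold change of 3.06 (8.34-fold, SE 0.438, edgeR adjusted p = 0.00681). This placed Dsg3 34th of 17163 promoters by fold. Leaving out uninjured 1 ended the call at a log2 fold change of 2.95 (edgeR adjusted p = 0.0664), and leaving out injured 3 gave 3.43 (edgeR adjusted p = 2.63e-07). Without the barcodes found in more than 1 library, the log2 fold change was 3.02 (edgeR adjusted p = 0.00432).

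Dsg2 is the desmoglein found in most epithelia. Its promoter (start chr18:20558074, plus strand, ENSMUSG00000044393.15) held 18.5, 19.2 and 16.6 CPM in uninjured and 25.4, 24.6 and 22.0 CPM in injured libraries. The groups did not overlap, and the mean rose 1.33-fold from 18.1 ± 1.38 to 24.0 ± 1.74 CPM, a log2 fold change of 0.41 (SE 0.101, edgeR adjusted p = 0.0403). The call was near the threshold: it was lost when any library other than injured 3 was left out, with log2 fold changes of 0.34 to 0.45 and edgeR adjusted p of 0.0991 to 0.15. It also depended on scaling, at a log2 fold change of 0.12 (edgeR adjusted p = 0.411) on total cut sites alone and of -0.14 (edgeR adjusted p = 0.511) with factors from 10 kb bins. Those scalings moved the median of all promoters to -0.28 and -0.53, and relative to that median the Dsg2 value was 0.40 on either one. On the same footing the Dsg3 values were 3.04 and 3.02.

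The desmocollins are the partners of the desmogleins across the gap between cells. The Dsc2 promoter (start chr18:20059554, minus strand, ENSMUSG00000024331.11) held 22.9, 21.5 and 17.2 CPM in uninjured and 26.1, 25.4 and 19.5 CPM in injured libraries. Injured 3 lay inside the uninjured range, and the log2 fold change of 0.21 (SE 0.132) did not pass the test (edgeR adjusted p = 0.377). The Dsc3 promoter (start chr18:20002351, minus strand, ENSMUSG00000059898.9) held 12, 13.1 and 8.87 CPM in uninjured and 17.0, 14.7 and 10.7 CPM in injured libraries. Here too injured 3 overlapped the uninjured group, and the log2 fold change of 0.32 (SE 0.186) did not pass (edgeR adjusted p = 0.334).

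Among the connexins, Gjb2 and Gja1 had well-filled promoters and Gjb5 and Gjb6 thin ones. The Gjb2 promoter (start chr14:57104702, minus strand, ENSMUSG00000046352.7) held 12.7, 11.8 and 17.3 CPM in uninjured and 16.2, 15.6 and 14.8 CPM in injured libraries. Uninjured 3 was the highest of all 6, and the log2 fold change was 0.15 (SE 0.143, edgeR adjusted p = 0.57). The Gja1 promoter (start chr10:56377330, plus strand, ENSMUSG00000050953.10) held 17.6, 19.4 and 12.4 CPM in uninjured and 19.9, 19.5 and 11.7 CPM in injured libraries. Replicate 3 was the lowest library in both groups, and the log2 fold change was 0.05 (SE 0.227, edgeR adjusted p = 0.924).

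Gjb5 and Gjb6, the epidermal type connexins, had low promoters whose groups did not overlap. The Gjb5 promoter (start chr4:127358181, minus strand, ENSMUSG00000042357.2) held 1.98, 1.16 and 1.99 CPM in uninjured and 3.27, 3.22 and 2.59 CPM in injured libraries. Its log2 fold change of 0.83 (SE 0.324) did not pass the test (edgeR adjusted p = 0.154). The Gjb6 promoter (start chr14:57133611, minus strand, ENSMUSG00000040055.9) held 4.02, 2.81 and 3.92 CPM in uninjured and 4.53, 4.73 and 4.37 CPM in injured libraries, a log2 fold change of 0.35 (SE 0.246, edgeR adjusted p = 0.432). With factors from 10 kb bins, 5 of these 6 uncalled promoters (Dsc2, Dsc3, Gjb2, Gjb6 and Gja1) had log2 fold changes below 0, from -0.51 to -0.20. Only that of Gja1 passed the test (edgeR adjusted p = 0.0074). This scaling called 9843 of 17163 promoters lower and moved their median to -0.53. Relative to that median, Gja1 was at 0.02. On total cut sites, Dsc2, Gjb2 and Gja1 were below 0, none past the threshold.

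**Figure D1:**
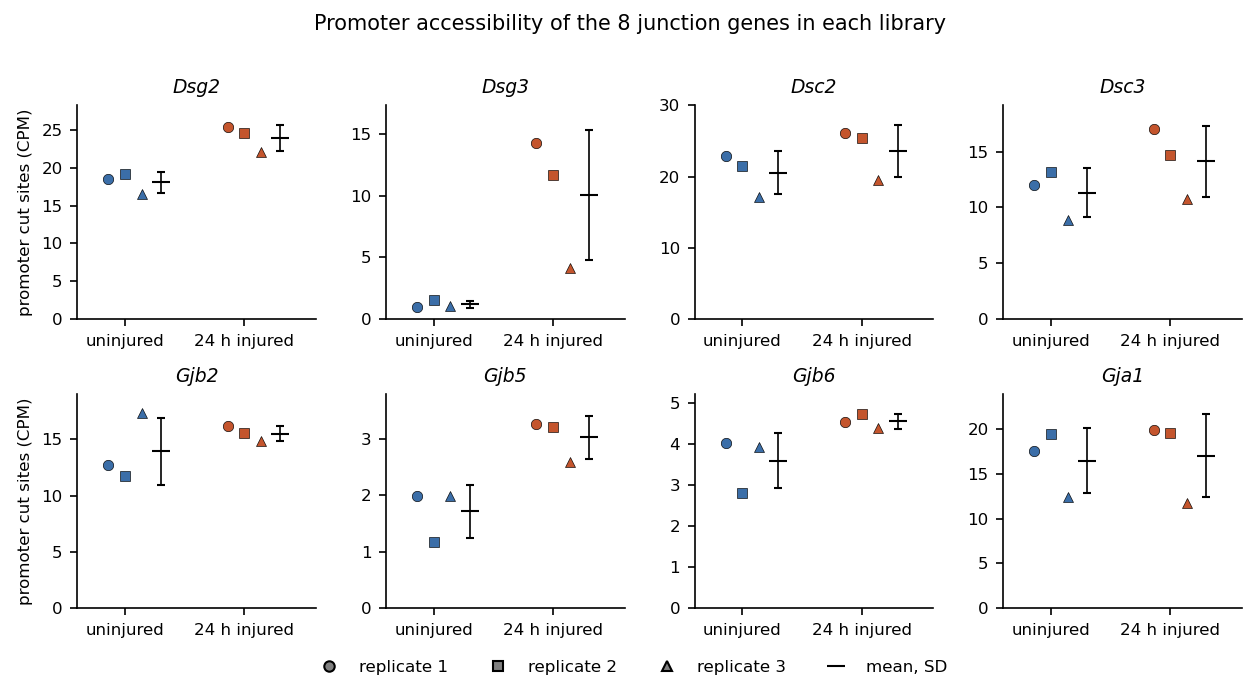
Promoter cut sites in CPM (vertical axes, each from 0) for the 8 genes in the 3 uninjured (blue) and 3 injured (orange) libraries. Point shapes give the replicate number and the black bar the mean with its SD. Dsg3 rises from about 1 CPM to between 4.14 and 14.3 CPM, and Dsg2, Gjb5 and Gjb6 are the other genes whose groups do not overlap.

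Gja1, Gjb6 and Dsc2 have further annotated starts more than 1 kb from the first, and none of those tested was called. Over 36472 starts, 5.78% were called in either direction and 2.79% higher, and the Dsg3 start was called higher at a log2 fold change of 2.99 (SE 0.423, edgeR adjusted p = 0.00352). The Dsg2 start missed the threshold in this wider fit, at 0.34 (SE 0.102, edgeR adjusted p = 0.0674). The Gja1 start at 56378442 was as full as its first one, but the windows of these starts overlap and share cut sites. It held 21.9, 23.4 and 13.0 CPM in uninjured and 19, 17.5 and 11 CPM in injured libraries (log2 fold change -0.29, SE 0.262, edgeR adjusted p = 0.588). The later starts of Dsc2 (20038139) and Gjb6 (57132059) held 0.853 to 1.21 CPM in either group, with log2 fold changes of 0.20 (edgeR adjusted p = 0.836) and 0.28 (edgeR adjusted p = 0.765), and the start of Gjb6 at 57125221 was too low to test. With the replicate block, 1569 starts were called higher and 2637 lower, against 1019 and 1090 without it.

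The promoters of related junction genes are counted against the 3.92% of all promoters that were called. Of 13 other desmosomal genes, 10 were tested and 0 were called in either direction, with a median log2 fold change of 0.10. The fullest promoters of that list belong to plaque and membrane genes. Jup, which encodes plakoglobin, held a mean of 57.1 CPM with a log2 fold change of -0.00 (edgeR adjusted p = 0.997). Dsp, which encodes desmoplakin, held 33.4 CPM at -0.05 (edgeR adjusted p = 0.774), and Perp, a tetraspan protein of desmosomes, held 28 CPM at -0.18 (edgeR adjusted p = 0.237). At an unadjusted p under 0.05 the edgeR count among these 10 was also 0, where 1786 of all promoters tested were higher and 1955 lower. DESeq2 called 0 of the 10, against 624 higher and 475 lower of 17163. In HBC-like clusters alone, Evpl (log2 fold change 0.52, edgeR adjusted p = 0.00154) and Pkp2 (0.44, edgeR adjusted p = 0.0394) were called higher. There 11.7% of all promoters were called higher, and on total cut sites neither gene was called. The signs of Jup and Dsp were not stable: Jup was above 0 under most other settings and Dsp in HBC-like clusters.

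Of the other channel genes, Panx1, which encodes a pannexin, held a mean of 20.02 CPM with a log2 fold change of -0.03, and Gja5, which encodes connexin 40, held 16.7 CPM at 0.10. Neither passed the test, and their signs changed under other settings.

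Of 16 adherens and tight junction genes, 15 were tested over all cells, 1 was called higher and 0 lower, with a median of -0.06. Cldn4, which encodes a claudin of tight junctions, rose from 26.7 ± 3.32 to 41.0 ± 6.19 CPM (log2 fold change 0.61, SE 0.118, edgeR adjusted p = 0.018), and its call was lost when uninjured 1 or 2 or injured 1 or 2 was left out. F11r, the fullest promoter of the list at 41.5 CPM, was at -0.09 (edgeR adjusted p = 0.563). Ocln, which encodes occludin, was at 0.32 (edgeR adjusted p = 0.0678) and Ctnna1, which encodes alpha-catenin, at -0.25 (edgeR adjusted p = 0.0797). With the replicate block both passed, Ocln higher (edgeR adjusted p = 0.0159) and Ctnna1 lower (edgeR adjusted p = 0.0308). Among HBC-like cells, 11.7% of all promoters were called higher and 9.34% lower. In these cells Cldn4 (log2 fold change 1.2, edgeR adjusted p = 6.25e-15) and Cldn7 (0.805, edgeR adjusted p = 0.000205) were called higher. So were Ocln (0.408, edgeR adjusted p = 0.00241) and Cgn (0.406, edgeR adjusted p = 0.0246). Ctnna1 (-0.431, edgeR adjusted p = 0.00138) and Ctnnd1 (-0.437, edgeR adjusted p = 0.0113) were called lower. On total cut sites there, neither Ocln nor Cgn was called.

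**Figure D2:**
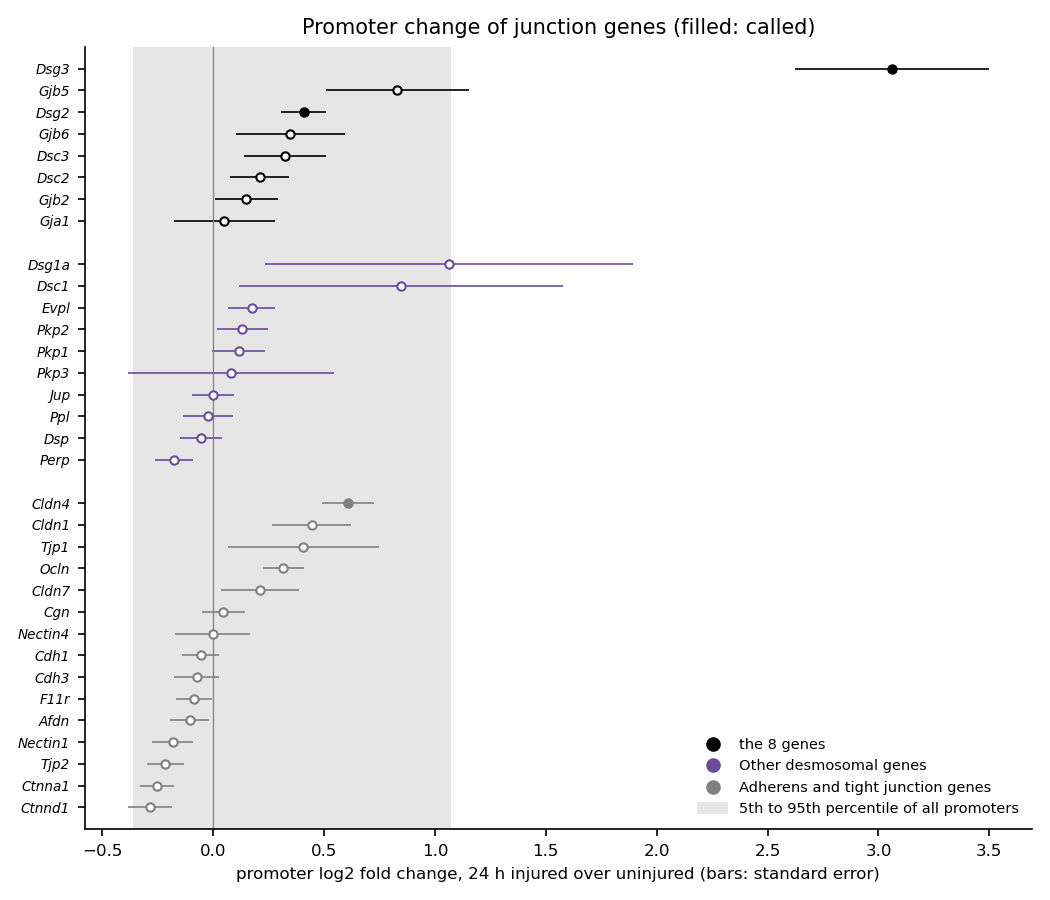
Promoter log2 fold change of injured over uninjured libraries (horizontal axis) for the 8 genes and 2 lists of related junction genes, with the standard error as bars and filled points for called promoters. The grey band runs from the 5th to the 95th percentile of all promoters tested (-0.36 to 1.07). Dsg3 (3.06) lies to the right of it.

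Tile by tile, the desmosomal cadherin and Gjb5 windows gained open tiles and the Gja1 window gained none. The windows of the 8 genes held 223 tested tiles, of which 33 were called higher and 2 lower in the fit across 406452 tiles. Of all tiles tested, 6.73% were called, 5.48% higher and 1.26% lower. The median log2 fold change was 0.17 over the 223 tiles and 0.06 over all tiles. The groups did not overlap at 79 of the 223 tiles, against 25.3% of all tiles. Neighbouring tiles are not independent, and the windows of Dsg2 and Dsg3, of Dsc2 and Dsc3 and of Gjb2 and Gjb6 overlap. The higher count was 46 without injured 3 and 30 without uninjured 3, but 17 without uninjured 1, 12 without uninjured 2, 13 without injured 1 and 9 without injured 2. All 33 tiles were above 0 in every one of these fits.

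By window, the called higher tiles numbered 10 of 25 tested for Dsg3 and 11 of 44 for Gjb5. They numbered 6 of 43 each for Dsc2 and Dsc3, 3 of 20 for Dsg2 and 2 of 27 for Gjb6. All 3 tiles of Dsg2 also count for Dsg3, and 2 tiles count for both Dsc2 and Dsc3. None of the 32 tiles of Gjb2 and none of the 45 of Gja1 was called higher by edgeR or by DESeq2. Of all 406452 tiles, DESeq2 called 25506 higher. At an unadjusted p under 0.05 the edgeR counts were 1 and 0, against 52564 higher among all tiles. In the Gja1 window 10 of 45 tiles had log2 fold changes above 0, with a median of -0.35. For comparison, 22 of 25 tiles were above 0 in the Dsg3 window (median 1.80) and 31 of 44 in the Gjb5 window (median 0.61). Of the 33 higher tiles, 19 were intergenic, 8 intronic and 6 exonic, and 4 lay within 1 kb of an annotated start. Their log2 fold changes ran from 1.00 to 4.68, with a median of 2.57.

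**Figure D3:**
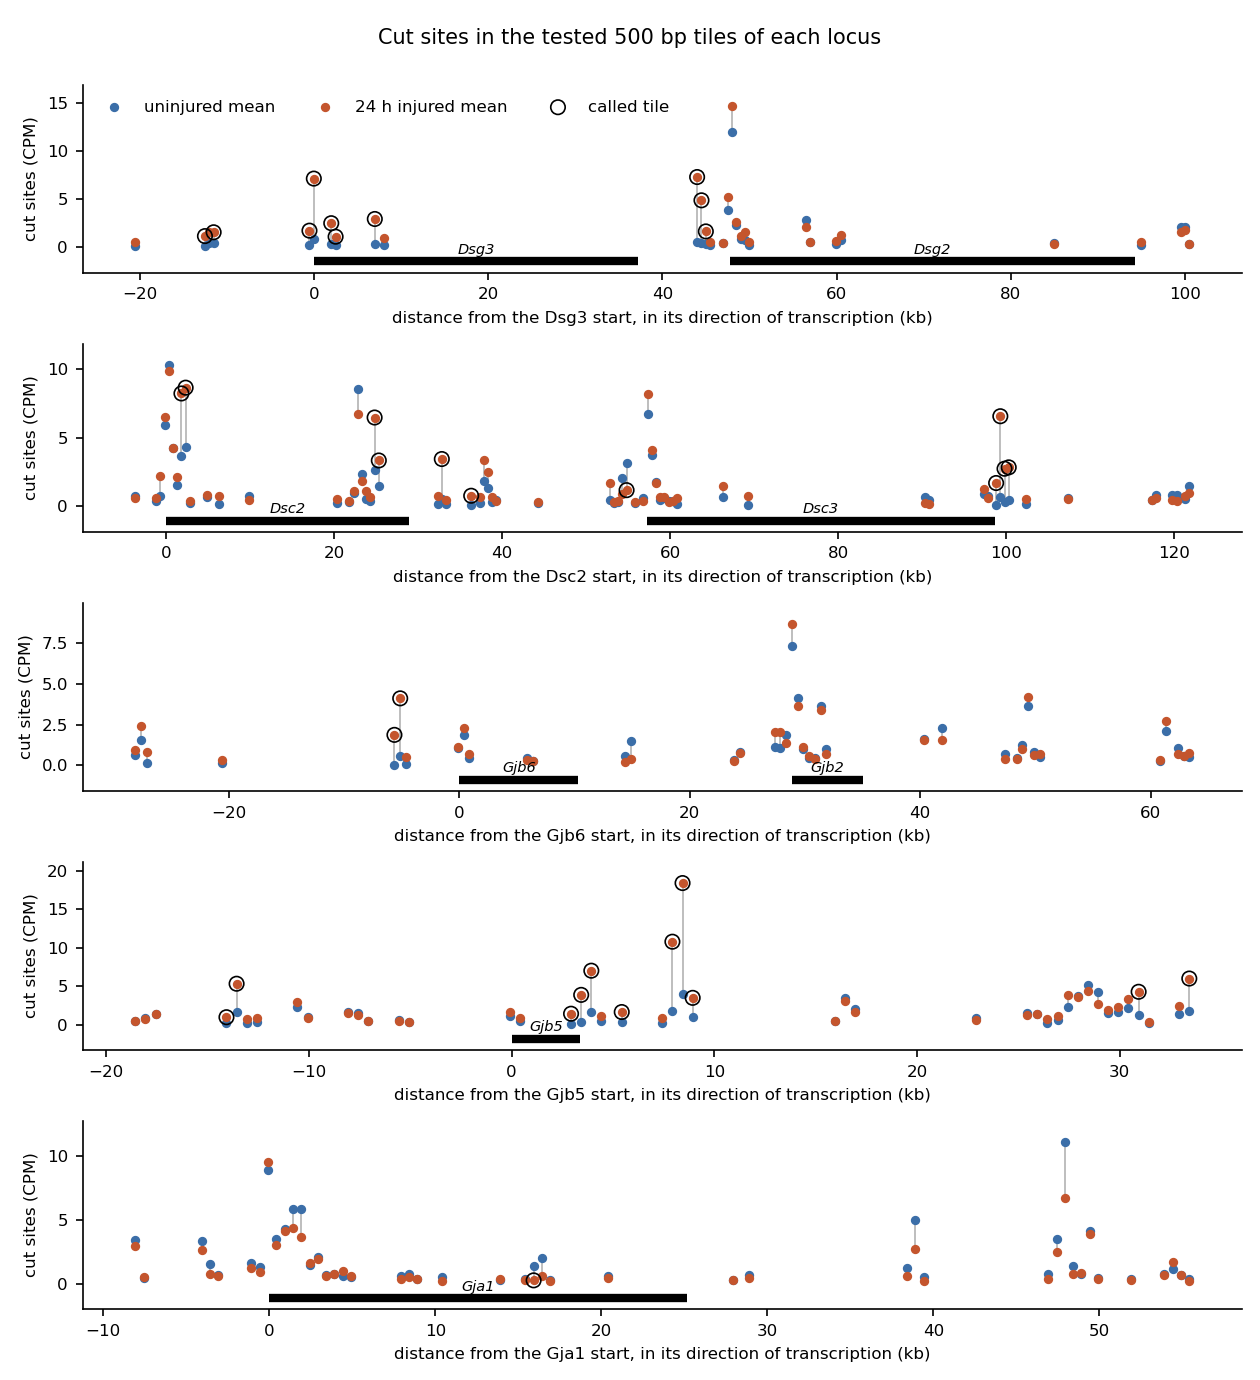
Mean cut sites in CPM of each tested 500 bp tile against its distance in kb from the start named under each panel. Blue points are the uninjured and orange points the injured mean of 3 libraries, circles mark called tiles and black bars the genes. The circled tiles upstream of Dsg2 rise from below 1 CPM, and the fullest tile of the Gjb5 locus rises from 4.02 to 18.4 CPM.

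Between Dsg3 and Dsg2, 3 adjoining tiles were called higher. These genes lie head to tail on chromosome 18, with 10614 bp from the end of Dsg3 to the start of Dsg2. A tile centred 3824 bp before the Dsg2 start (chr18:20554001-20554500, intergenic) held 0.44, 0.68 and 0.49 CPM in uninjured and 9.08, 9.93 and 2.90 CPM in injured libraries. The groups were far apart, at a log2 fold change of 3.72 (SE 0.456, edgeR adjusted p = 0.00197), which held without any 1 library (3.42 to 4.05). The next tile (chr18:20554501-20555000) rose from 0.408 ± 0.093 to 4.89 ± 2.38 CPM, at 3.53 (edgeR adjusted p = 0.00219). The tile after that (chr18:20555001-20555500) was called at 2.13 (edgeR adjusted p = 0.0385), but not when uninjured 1 or 2 or injured 1 or 2 was left out. The tile over the first exon of Dsg2 (chr18:20558001-20558500, 5′ UTR and coding), the fullest of either window, went from 12 ± 0.946 to 14.7 ± 0.726 CPM and was not called (log2 fold change 0.30, edgeR adjusted p = 0.208). The tile over the Dsg3 start (chr18:20510001-20510500) rose from 0.858 ± 0.283 to 7.14 ± 3.55 CPM, at 3.04 (SE 0.422, edgeR adjusted p = 0.00287).

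At the desmocollins the fullest tiles, both by the starts, were not called, and tiles at the 3′ ends of the genes opened. Just past the 3′ end of Dsc3, a tile at chr18:19960001-19960500 held 0.44, 0.83 and 0.79 CPM in uninjured and 8.58, 8.41 and 2.74 CPM in injured libraries. This was a log2 fold change of 3.20 (SE 0.442, edgeR adjusted p = 0.00281), and injured 3 was again the lowest of its group while staying above all uninjured libraries. The tiles on either side of it were also called, at 3.13 (chr18:19959501-19960000, edgeR adjusted p = 0.00292) and, over the Dsc3 3′ UTR, at 3.74 (chr18:19960501-19961000, edgeR adjusted p = 0.00551); the last fell to an edgeR adjusted p of 0.0521 without injured 2. Upstream of Dsc3, a tile at chr18:20004501-20005000 was 1 of the 2 called lower, from 3.15 ± 0.611 to 1.18 ± 0.306 CPM (log2 fold change -1.42, SE 0.327, edgeR adjusted p = 0.0246). The Dsc3 start tile was at 0.28 (edgeR adjusted p = 0.541).

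Around Dsc2, the 3 higher tiles with the smallest p were an intronic one 1804 bp past the start (chr18:20057501-20058000), one over an exon with coding sequence and 3′ UTR (chr18:20034501-20035000) and one beyond the gene (chr18:20026501-20027000). The first held 3.21, 3.42 and 4.36 CPM in uninjured and 10.4, 8.70 and 5.61 CPM in injured libraries (log2 fold change 1.16, SE 0.243, edgeR adjusted p = 0.0163). The others had log2 fold changes of 1.29 (edgeR adjusted p = 0.00816) and 2.63 (edgeR adjusted p = 0.00766). These 3 calls and that of the lower tile were lost when uninjured 2, injured 1 or injured 2 was left out. Without uninjured 1 the intronic and the lower tile were lost as well. The fullest tile of Dsc2, over 5′ UTR and coding sequence 304 bp past the start (chr18:20059001-20059500), was at -0.06 (edgeR adjusted p = 0.889), a sign that changed under several settings.

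The Gjb5 window opened most beyond the 3′ end of the gene. It also covers other annotated genes, so a tile in it need not belong to Gjb5. Of the 11 tiles called higher in it, 2 lay nearest the Gjb5 start and the rest nearest starts of other genes. The fullest tile (chr4:127349501-127350000, whose sequence is shown above) held 2.33, 3.71 and 6.02 CPM in uninjured and 28, 17.8 and 9.43 CPM in injured libraries. The groups did not overlap, but the highest uninjured library (6.02 CPM) and the lowest injured one (9.43 CPM) were both replicate 3. The log2 fold change was 2.17 (SE 0.38, edgeR adjusted p = 0.00734), and the call was lost without uninjured 2 (edgeR adjusted p = 0.061) or injured 2 (edgeR adjusted p = 0.0575). The adjoining tile (chr4:127350001-127350500) rose from 1.79 ± 0.407 to 10.8 ± 4.29 CPM, at 2.57 (SE 0.299, edgeR adjusted p = 0.00171). Counted over the whole gene body, which includes called tiles in the 3′ UTR, Gjb5 had a log2 fold change of 1.78 (edgeR adjusted p = 0.0285).

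Gjb2 and Gjb6 lie 18600 bp apart on chromosome 14, and their windows differed at one spot. A tile 5139 bp before the Gjb6 start (chr14:57138501-57139000) held 0.82, 0.32 and 0.55 CPM in uninjured and 5.2, 4.04 and 3.07 CPM in injured libraries, a log2 fold change of 2.92 (SE 0.389, edgeR adjusted p = 0.00243). The next tile outward (chr14:57139001-57139500) had 0, 1 and 5 cut sites in the uninjured libraries and 95, 52 and 31 in the injured ones (edgeR adjusted p = 0.00474). Both calls held without any 1 library. Between the genes, a tile at chr14:57118501-57119000 went the other way, from 1.48 ± 0.185 to 0.393 ± 0.3 CPM, and was not called (log2 fold change -1.86, edgeR adjusted p = 0.0565). With the replicate block it was called lower (edgeR adjusted p = 0.0276). The tile at the Gjb2 start, the fullest of both windows, was at 0.24 (edgeR adjusted p = 0.577).

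At Gja1 the start tile (chr10:56377001-56377500) was level at 8.90 ± 2.32 and 9.51 ± 2.71 CPM (log2 fold change 0.10, edgeR adjusted p = 0.903; its sign changed with scaling). The other lower tile of the set lay in a Gja1 intron (chr10:56393001-56393500, sequence above). It held 2.02, 1.71 and 0.47 CPM in uninjured and 0.38, 0.19 and 0.20 CPM in injured libraries, at a log2 fold change of -2.36 (SE 0.607, edgeR adjusted p = 0.0398). Uninjured 3 lay close to the injured group, and the call was lost without uninjured 1 or 2 or injured 1 or 2. Without called doublets, neither this tile nor the one upstream of Dsc3 was called, and 0 member tiles were lower.

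AP-1 is the Fos and Jun family of factors, which bind the letters TGANTCA. Matches to it were found in 20 of the 33 member tiles called higher (60.6%) and in 0 of the 2 called lower, against 48 of the 188 uncalled ones (25.5%). In the fit across the genome the match stood in 59.7% of higher tiles, in 7.41% of lower tiles and in 18.1% of uncalled tiles, so the opened junction tiles had the match about as often as opened tiles in general. In the 300 bases around the first start, the match was present in Gja1 alone of the 8 genes (6.91% of all promoters). The GC box letters GGGCGG were present in Dsg2, Dsc2 and Gjb2 (43.0% of all promoters), TATAAA in Gjb5 (12.6%), the TEAD letters GGAATG in Dsg2 (13.5%) and the GRHL letters AACNNGTT in Gjb6 (4.14%). GC content over these bases ran from 47.3% in Dsc3 to 70.0% in Gjb2, and Dsg3 had 1 CpG against 27 in Gjb2.

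Within HBC-like clusters, Dsg3 and Gjb2 rose along with Dsg2 and Dsc2, and no promoter of the 8 fell. These clusters held 335, 602 and 162 uninjured and 996, 254 and 157 injured cells. Unnamed clusters 3 and 7, also high in HBC markers, were left out. The injured cells were nearly all in cluster 1 (983, 250 and 143 cells) and the uninjured ones mostly in clusters 2 and 5. The class is thus made of different clusters in each group. Dsg3, scored over its gene body and a stretch upstream, is among the leading genes of cluster 1. Of the promoters tested there, 11.7% were called higher, 9.34% lower and 21% in either direction, so a call was common. Of the 8 genes, 4 were called higher (Dsg3, Gjb2, Dsg2 and Dsc2) and 0 lower, and the groups did not overlap for 6 of the 8, against 35.5% of all promoters in these cells. Dsg3 held 1.56, 1.71 and 0.72 CPM in uninjured and 19.8, 18.0 and 15.3 CPM in injured libraries (log2 fold change 3.58, SE 0.246, edgeR adjusted p = 2.1e-21). Injured 3 no longer lay far below the others here, but the clusters were drawn from these same cut sites. Cluster 3, left out, held 218 cells of injured 3 and 1.09 CPM of Dsg3 over its pooled cut sites. The evenness of the injured libraries and the p-value thus depend on that choice of cells. Gjb2 held 9.82, 10.8 and 5.42 CPM in uninjured and 14.8, 16.2 and 17.1 CPM in injured libraries, at 0.80 (SE 0.182, edgeR adjusted p = 0.000584). This gap was not seen over all cells, where uninjured 3 had the highest Gjb2 value. The clusters left out were high in Gjb2, pooled without TMM scaling: 22.1 CPM in cluster 7, mostly of uninjured 3, and 21.1 CPM in cluster 3, mostly of injured libraries. Whether the Gjb2 gap holds with clusters 3 and 7 added to the HBC-like cells was not tested.

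Dsg2 rose in these clusters from 19.1 ± 1.80 to 27.7 ± 1.47 CPM (log2 fold change 0.53, SE 0.128, edgeR adjusted p = 0.00119) and Dsc2 from 22.9 ± 2.82 to 31.0 ± 2.13 CPM (0.42, SE 0.121, edgeR adjusted p = 0.00755). These calls held without any 1 library and without shared barcodes. On total cut sites, which moved the median of all promoters by -0.31, Gjb2 stayed called at 0.51 (edgeR adjusted p = 0.0153), while Dsg2 at 0.23 (edgeR adjusted p = 0.148) and Dsc2 at 0.12 (edgeR adjusted p = 0.433) did not. Dsc3, Gjb5 and Gjb6 were at 0.31, 0.94 and 0.30, none past the threshold. Gja1 held 22.3, 24.9 and 21 CPM in uninjured and 21.9, 22.6 and 24.1 CPM in injured libraries (log2 fold change -0.01, SE 0.129, edgeR adjusted p = 0.953).

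**Figure D4:**
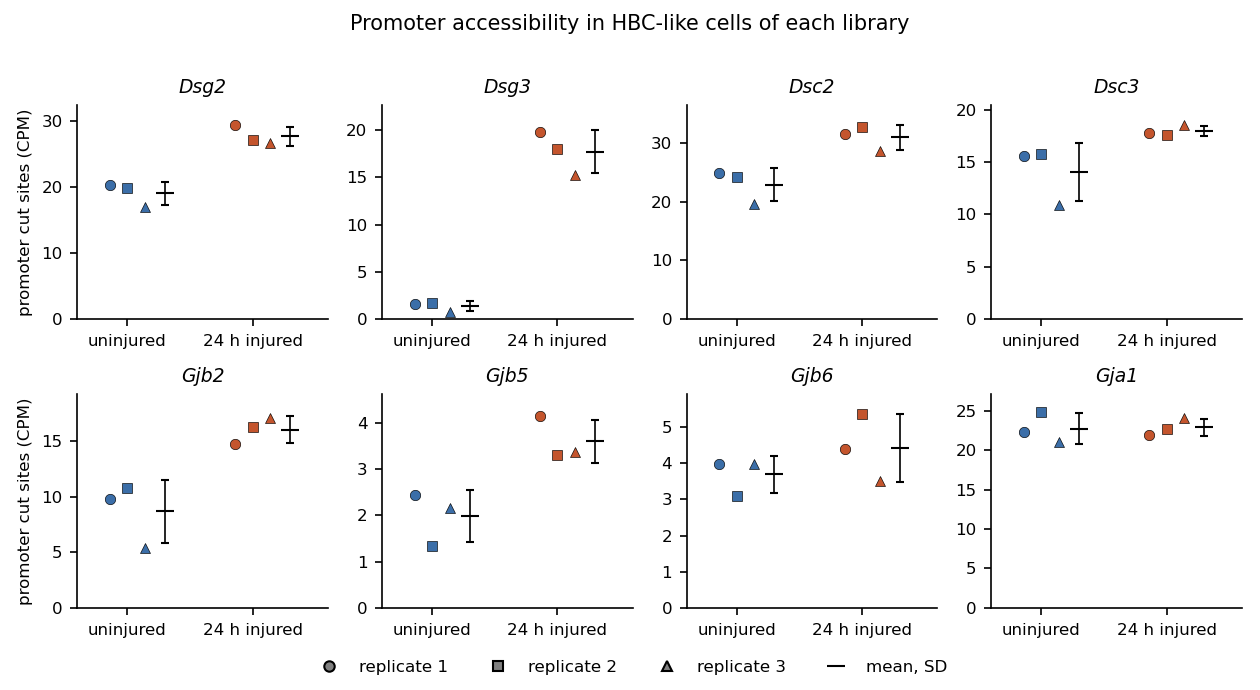
Promoter cut sites in CPM (vertical axes, each from 0) of the 8 genes, counted over HBC-like cells alone, in the 3 uninjured (blue) and 3 injured (orange) libraries, with the mean and SD as black bars. Injured 3 (triangles) lies near the other injured libraries for Dsg3 (15.3 CPM), and Gjb2 separates the groups (5.42 to 10.8 against 14.8 to 17.1 CPM).

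The Gja1 locus closed at several places in HBC-like clusters, while the promoter around its first start did not pass the test. Of 27 tested tiles in its window, 11 were called lower and 0 higher, against 15.1% lower and 24.8% higher among all tiles tested in these cells. The lower tiles lay in 3 places: 2 upstream of the start, 4 within the gene and 5 beyond its 3′ end. Of those within the gene, 2 (chr10:56378501-56379000 at -0.82 and chr10:56379001-56379500 at -0.89) lie next to the Gja1 start at 56378442. Their log2 fold changes ran from -2.68 to -0.82. The intronic tile named above held 3.20, 2.15 and 2.63 CPM in uninjured and 0.53, 0.23 and 0.37 CPM in injured libraries. Pooled without TMM scaling, it stood at 2.44 and 2.59 CPM in clusters 2 and 5 and at 0.405 CPM in cluster 1. In unnamed cluster 7, mostly of uninjured 3, high in HBC markers and left out here, it stood at 0.091 CPM. The comparison here is thus mostly of cluster 1 with clusters 2 and 5, and not of all uninjured cells high in HBC markers. The fullest of the 11, picked after its values were seen, lies 47920 bp past the start (chr10:56425001-56425500, intergenic) and held 23.1, 16.2 and 15.4 CPM in uninjured and 8.58, 7.65 and 8.51 CPM in injured libraries (log2 fold change -1.15, SE 0.175, edgeR adjusted p = 3.42e-06). The groups did not overlap at 10 of the 11 tiles, against 49.8% of all tiles tested in these cells. The 11 were picked as called lower, so little overlap follows from that choice. The number of lower Gja1 tiles was 10 to 14 when 1 library was left out, 11 without shared barcodes and 11 on total cut sites.

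Over all 8 windows, HBC-like clusters had 123 tested tiles, 48 higher and 16 lower, where 40% of all tiles tested in these cells were called. Of the 33 tiles called higher over all cells, 31 could be tested here and all 31 were called higher. Across the genome, 24494 of the 27370 tiles called in either direction over all cells kept their call here, and 0 were opposite. The HBC-like cells are part of those counted over all cells, so the counts are not independent. By window the higher and lower counts were 14 and 0 of 19 for Dsg3, 5 and 0 of 12 for Dsg2, 9 and 2 of 22 for Dsc2, 8 and 2 of 16 for Dsc3, 15 and 2 of 29 for Gjb5, 5 and 0 of 13 for Gjb6 and 4 and 1 of 14 for Gjb2. The tile upstream of Dsc3 that closed over all cells closed here too, at -2.24, and the Gjb2 start tile was called higher at 0.85 (edgeR adjusted p = 0.00587). The AP-1 letters were in 29 of the 48 higher tiles (60.4%) and in 0 of the 16 lower ones, against 50.2% and 9.82% of all higher and lower tiles in these cells.

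Across the 11 clusters of at least 100 cells, the promoters fell into different patterns, given here as levels over the pooled cut sites of each cluster, without TMM scaling and with no test. Dsg3 was at 16.9 CPM in cluster 1 and at 0 to 3.24 CPM in the other 10. That included unnamed cluster 3, whose 547 cells included 229, 71 and 218 from the injured libraries and where Dsg3 stood at 1.84, 1.07 and 0.80 CPM in the injured libraries. Cluster 3 was left out of the HBC-like counts, though 7 of 8 HBC markers stood above the mean of the other clusters in it. The fullest tile of the Gjb5 window was different, at 27.0 CPM in cluster 1 and at 17.1 CPM in cluster 3. In the injured libraries of cluster 3 it stood at 24.2, 18.2 and 13.7 CPM. It was at 3.91 CPM in cluster 2 and at 12.1 CPM in unnamed cluster 7, of whose 172 cells 158 came from uninjured 3. Gjb2 was highest in the unnamed clusters 4, 7 and 3 (28.9, 22.1 and 21.1 CPM).

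Gja1 was highest in the uninjured HBC-like clusters 2 and 5 (25.3 and 25.7 CPM) and stood at 0.54 and 3.75 CPM in the sensory neuron-like clusters 6 and 8. Dsc3 followed a similar course, from 18.9 CPM in cluster 2 to 0.406 CPM in cluster 6. Dsg2 was broad, at 25.4 CPM in cluster 1 and 26.1 CPM in neuron-like cluster 8, and Dsc2 was at 26.2 to 28.3 CPM in the large HBC-like clusters and 27.3 CPM in sustentacular-like cluster 10. Gjb6 was low everywhere, between 0 and 6.15 CPM.

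**Figure D5:**
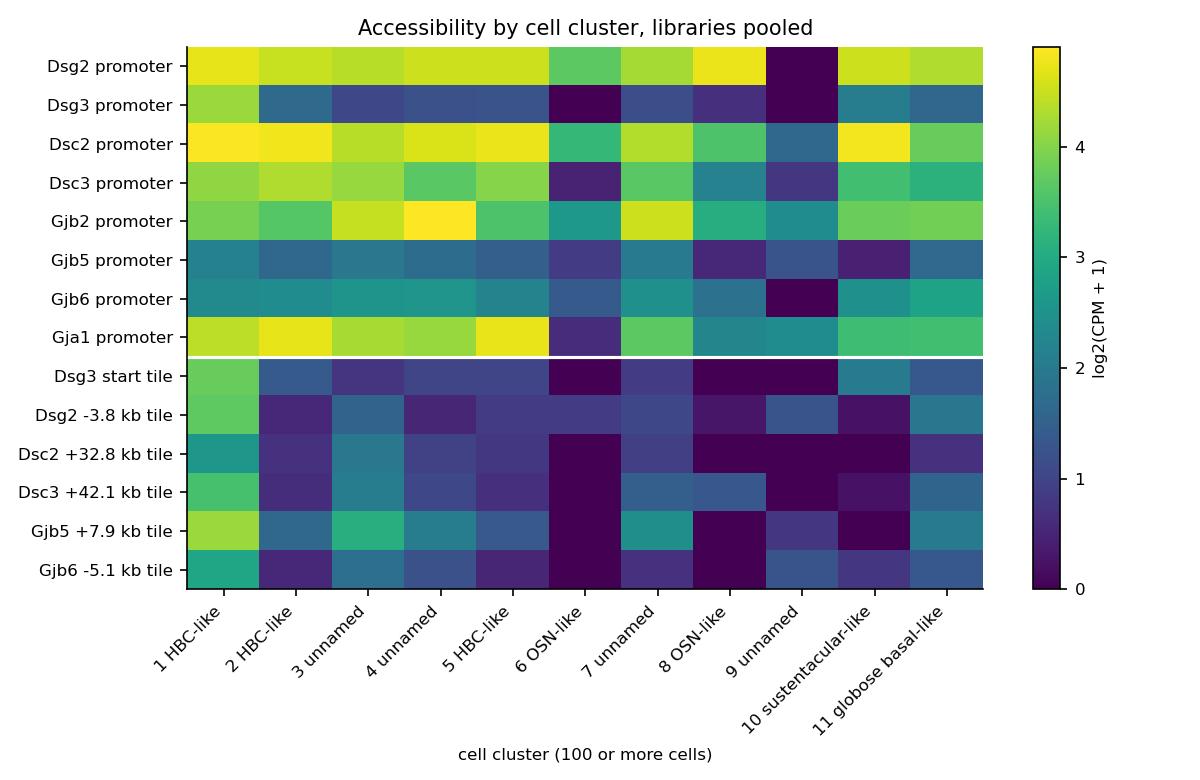
Cut sites as log2(CPM + 1) (colour) of the 8 promoters and of the tile with the smallest p among called higher tiles at 6 of the loci (rows) in cell clusters of at least 100 cells (columns), libraries pooled. Dsg3 and the called tiles are brightest in cluster 1, while Gja1 and Dsc3 are bright in clusters 1, 2 and 5 and dark in cluster 6.

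Likeness between promoters was measured as Pearson r of log2(CPM + 1) over the same 11 clusters, which share libraries and differ in depth, among 12225 promoters. Shallow cluster 9 (median 3800 fragments per barcode) held 0 Dsg2 and 3 Dsc2 promoter cut sites. Genes near 0 there too can reach a high r through this cluster alone, and its part in the values was not tested. The closest to Dsg3 were Fbp2 (0.89) and Il22ra1 (0.883), to Dsg2 Foxo4 (0.993) and Rbm45 (0.992), to Dsc2 Pawr (0.989) and Fkbp11 (0.988), and to Dsc3 Sema3d (0.981) and Gm19426 (0.98). For the connexins they were Dmbx1 (0.983) and Vill (0.97) for Gjb2, Ereg (0.956) and Mall (0.955) for Gjb5, Zfp804b (0.982) and Ccnd1 (0.978) for Gjb6, and Col23a1 (0.969) and Sfrp1 (0.965) for Gja1. Among the 8 genes themselves, Dsc3 and Gja1 were the most alike (0.937) and Dsg2 and Gjb5 the least (0.112).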

How the data were processed

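Single-cell ATAC-seq fragments of 6 libraries were analysed. The authors made them with Cell Ranger 2.0.0 on mm10, per the submitters' processing notes, and per the file headers the deposited matrices were written by software version 1.2.0. The deposited fragment lists give positions and a count of read pairs per fragment; that count was not used beyond 1 per fragment. Both ends of each fragment were taken as cut sites, as deposited, with no further shift. Barcodes with at least 2000 fragments were kept, doublets included (barcodes called as doublets: 603 of 4476).

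Cut sites were counted in windows of 1 kb either side of each protein-coding gene's first start (GENCODE M21, GRCm38), at further starts and in 500 bp tiles of the genome, of which 514026 were open, meaning at least 5 times the median. They were tested with edgeR 4.0.16 (quasi-likelihood, robust, TMM factors over the features tested, filterByExpr, Benjamini-Hochberg over all features tested, threshold 0.05), which was tested on simulated data. All 6 libraries entered each fit, with no covariate. A library is the replicate, so p-values measure the spread between 3 libraries a group, and counting intervals would cover counting error only. DESeq2 1.42.0, other scalings, windows, filters, cell sets and libraries left out were alternatives. Cells were clustered on 131141 regions (scikit-learn 1.9.0, Leiden with igraph 0.11.9), 15 clusters in all. Clusters were named from markers scored on cut sites over each gene body and a stretch upstream.

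Libraries of the same replicate number deviated together at promoters (r = 0.112, 0.237 and 0.290 across genes), all above 0.1. The main fits did not use this pairing, which entered only as the replicate block of an alternative fit. Of the pairs with different numbers, uninjured 2 and injured 1 stood at 0.147, above the replicate 1 pair, and the other 5 were below 0. That pairing comes from the data, and the labels give only the number and the age. The 8 genes and the lists of related genes were chosen with earlier results of these data known. Named are the 8 genes, the called genes and the 3 fullest promoters of each list, and, at each locus, the fullest tile and the 3 called tiles with the smallest p in each direction, apart from a few items that are not reported here. Sequences come from the GRCm38 reference and RefSeq GRCm38.p6, whose promoter table matched 4 of the 8 genes.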

Additional observations from a re-analysis of the deposited data

How the results depend on the processing

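With 1 library left out, promoters called higher numbered 69 to 768 and lower 31 to 614, starts 279 to 1549 and 164 to 1518, tiles 4704 to 33958 and 659 to 10685, and member tiles 9 to 46 and 0 to 6. Among the members, log2 fold changes then ran from 0.34 to 0.47 for Dsg2 and from 2.72 to 3.43 for Dsg3. Signs changed for the uncalled promoters of Gja1 (-0.14 to 0.27), Dsp (-0.12 to 0.031), Jup (-0.086 to 0.092) and Panx1 (-0.14 to 0.051), for the Gja1 start tile (-0.12 to 0.27) and for Gja1 in HBC-like clusters (-0.065 to 0.069).

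With the replicate block, promoters called were 778 higher and 1019 lower and starts 1569 and 2637. Beside these counts the block changed the calls of Ocln, Ctnna1 and 1 tile between Gjb2 and Gjb6. It changed no other call of a gene or tile named from the fits over all cells. Factors from 10 kb bins gave 9843 lower promoters, 13470 higher and 20224 lower tiles, and 21 and 7 member tiles. They turned Dsg2 to -0.14, Dsc2 to -0.35, Dsc3 to -0.23, Gjb2 to -0.39, Gjb6 to -0.20, Gja1 to -0.51, Gja5 to -0.45 and Ocln to -0.23, and the start tiles of Dsg2, Dsc3, Gjb2 and Gja1 to -0.14, -0.15, -0.21 and -0.36. Total cut sites gave 6600 lower promoters, 6916 lower starts, 9839 lower tiles and 4 lower member tiles, with Dsg2 at 0.12, Dsc2 at -0.082, Gjb2 at -0.14, Gja1 at -0.24, Gja5 at -0.19 and the Gja1 start tile at -0.091. These scalings move the median promoter down as well.

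HBC-like clusters gave 1738 higher and 1387 lower promoters, 44347 higher and 26987 lower tiles and 16 lower member tiles, with Dsc2 at 0.42, Gjb2 at 0.80, Gja1 at -0.015, Dsp at 0.071, Jup at 0.20 and the fullest Dsc2 tile at 0.10. On total cut sites there, 17 member tiles were lower, with Dsg2 at 0.23, Gjb2 at 0.51, Gja1 at -0.31, Gja5 at -0.13 and the Gja1 start tile at -0.068. Without shared barcodes Gja1 in these clusters was at 0.006, and over all cells Panx1 was at 0.023 and Jup at 0.021.

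Whole gene bodies gave Dsg2 0.28, Gjb2 -0.18, Gjb5 1.78, Gjb6 -0.041, Gja1 -0.41 and Jup 0.13. DESeq2 called 624 promoters higher and 475 lower and 5 member tiles lower, with Jup at 0.008. Lower promoters numbered 191 with barcodes of at least 20% of cut sites in open tiles (Jup 0.016), 185 without called doublets (Jup 0.042, fullest Dsc2 tile 0.035, 0 lower member tiles) and 181 in 500 bp windows (Jup 0.023). Jup was at 0.005 with at least 5000 fragments and at 0.014 without barcodes over 200000. A shifted grid gave the fullest Dsc2 tile 0.16, and merged tiles gave it 0.39 and the Gja1 start tile -0.21. The cause of these changes was not tested. Thin promoters such as those of Gjb5 and Gjb6, at under 5 CPM, limit what their tests can detect. The shared barcodes, the settings in HBC-like clusters with total cut sites, and the upper limit on fragments were chosen after seeing the data.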
